A study of Mus musculus with 6 samples.

Results

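The genes described here were 10 transcription regulators of the GATA, FOG and COUP-TF families, out of 55565 genes listed. They were the GATA factors Gata2, Gata3, Gata4, Gata5 and Gata6, the FOG cofactors Zfpm1 and Zfpm2, and the COUP-TF nuclear receptors Nr2f1, Nr2f2 and Nr2f6. They were taken by gene symbol, and the group was chosen by measured values, the higher Gata6 and Nr2f1 counts of the KO libraries, so the differences between genotypes are given as a description of these libraries, without p-values for the 10 genes. Bulk RNA-seq of mouse embryo fibroblasts (MEFs) compared 3 wildtype libraries (WT1 to WT3) with 3 Mcm8 knockout libraries (KO1 to KO3), in order to see how loss of MCM8, a helicase of DNA replication and repair, changes gene expression. By the study's methods, embryos of both genotypes came from matings of Mcm8 heterozygotes whose strains, C57BL/6J and ICR, were mixed, and MEFs were prepared at embryonic day 13.5 from trunks without head, limbs, heart or liver. Cells of both genotypes carried an SV40 lentivirus used for immortalization and had been selected with puromycin. The study's methods call the replicates biological repeats, without saying whether they were separate embryos or cultures, so p-values measure the spread between these libraries. Values by library are listed from library 1 to library 3.

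GATA factors are zinc finger proteins that bind DNA sites with a GATA core, and the members differ in tissue: GATA2 and GATA3 are best known from blood, nervous system and urogenital development, and GATA4, GATA5 and GATA6 from heart, gut and endoderm. The FOG proteins, encoded by Zfpm1 and Zfpm2, bind the amino-terminal zinc finger of GATA factors and activate or repress with them, partly through the NuRD complex. COUP-TFs are orphan nuclear receptors that bind repeats of the core site AGGTCA, often as repressors, and are widely used in mesenchyme, nervous system and vessels of the embryo.

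Library totals lay between 12722979 and 19019695 counts in WT and between 15954793 and 21022755 in KO. Mcm8, the targeted gene, was at 13.8, 16.6 and 12.8 CPM (counts scaled to library depth with TMM factors) in WT and at 4.20, 4.45 and 4.12 CPM in KO. All KO libraries were below all WT libraries, as the labels state. WT1 stood apart from the other WT libraries: the chi-square per degree of freedom of the counts, which is near 1 for sampling noise alone, was 13.9 between WT1 and WT2 and 13.1 between WT1 and WT3, against 4.38 between WT2 and WT3 and at most 3.05 within KO. Values without WT1 are therefore given for the regulators where they move, and for some of the other genes. The summed level of 4 Y-linked genes was 24.3 to 25.9 CPM in WT and 108 to 126 CPM in KO, while Xist was at 940 to 1359 CPM in WT and 474 to 494 CPM in KO, so the genotypes also differed in sex-linked transcripts, and the part of this difference in the values below was not tested. All 12 fibroblast markers were detected, with a summed level of 26641 to 31688 CPM in WT and 31000 to 31938 CPM in KO.

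Nr2f1 and Nr2f2 are close paralogs, and the longest run of bases that they share is shown because it bears on how far their reads can be told apart. In their GENCODE M21 transcripts it had 59 bases, which is shorter than a read by the read length in the study's methods. It lies in the Nr2f1 coding sequence, from base 232 to base 290 counted from the first base of the start codon, at chr13:78198284-78198342 of GRCm38 on the minus strand, and it encodes the start of the DNA-binding zinc finger region. No base is in capitals because every base is shared.
Nr2f1 and Nr2f2: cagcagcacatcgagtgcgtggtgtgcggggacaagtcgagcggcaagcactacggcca
Of the 5090 windows of 50 bases in Nr2f1 transcripts, 10 also occurred in Nr2f2, and none did so at 75 bases. No other pair of the 10 genes shared a window of 50 bases.

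Promoter sequences, 250 bases before to 50 bases after a transcript start, were found in the RefSeq table (GRCm38.p6) for 7 of the 10 genes, with 9 promoters. Gata4, Gata6 and Zfpm2 were not among them. A GATA motif, searched on both strands as AGATAA and as AGATAG, and also with the letters TGATAA and then TGATAG, occurred in 2 of the 9 promoters, and in 29.8% of 32851 promoters of all genes. The Gata3 promoter held TGATAG at bases 37 to 42 after its start, and the Nr2f2 promoter held CTATCT, which reads AGATAG on the strand opposite to the gene, 118 to 113 bases before its start. The COUP-TF core site AGGTCA was in 0 of the 9 promoters and in 16.3% of all promoters, and its direct repeat with a spacer of 1 base (AGGTCANAGGTCA) was in 0 of the 9 and in 0.0396% of all. Of the 2 Gata2 promoters, the first is shown because Gata2 was one of the genes called higher in KO and the upstream part of this promoter holds no annotated exon, while that of the second lies in one. These are the 250 bases before the start, at chr6:88193641-88193890 of GRCm38.p6 on the plus strand, with no motif match and therefore no capitals.
Gata2: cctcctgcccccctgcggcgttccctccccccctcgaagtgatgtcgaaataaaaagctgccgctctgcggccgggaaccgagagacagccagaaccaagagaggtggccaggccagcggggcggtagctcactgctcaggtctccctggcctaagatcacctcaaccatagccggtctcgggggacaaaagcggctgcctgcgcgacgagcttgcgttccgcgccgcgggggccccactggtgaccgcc
A match of these letters is a description of the sequence and not a binding site.

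Of the 10 regulators, 9 were listed above 0 FPKM somewhere among the 6 libraries and were tested, and 8 had counts in every library. A gene was called when its log2 fold change between KO and WT was above 1 in size and its Benjamini-Hochberg adjusted p-value from the quasi-likelihood test of edgeR was below 0.05. By this rule 3 regulators were called higher in KO (Gata2, Gata6 and Nr2f1) and 0 lower. Over all 26898 genes tested, 1.75% were called higher, 0.665% lower and 2.42% in either direction. DESeq2 and limma-voom called the same 3 regulators higher and 0 lower, beside 1.32% and 0.483% of all genes with DESeq2 and 1.8% and 0.714% with limma-voom. Gata6 and Nr2f1 were the reason for the choice, so nothing is read from this count. Without overlap between the genotypes, 5 of the 8 regulators with counts in every library were higher in KO and 1 was lower, beside 11.6% and 10.1% of all genes tested. These shares also cover genes without counts in every library, and the 5 include Gata6 and Nr2f1. Nothing is therefore read from this count either. The median log2 fold change of the 8 was 0.28, and that of all genes tested was 0.01. In bulk RNA, fewer cells that express a gene and less RNA of it per cell cannot be told apart.

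**Figure D1:**
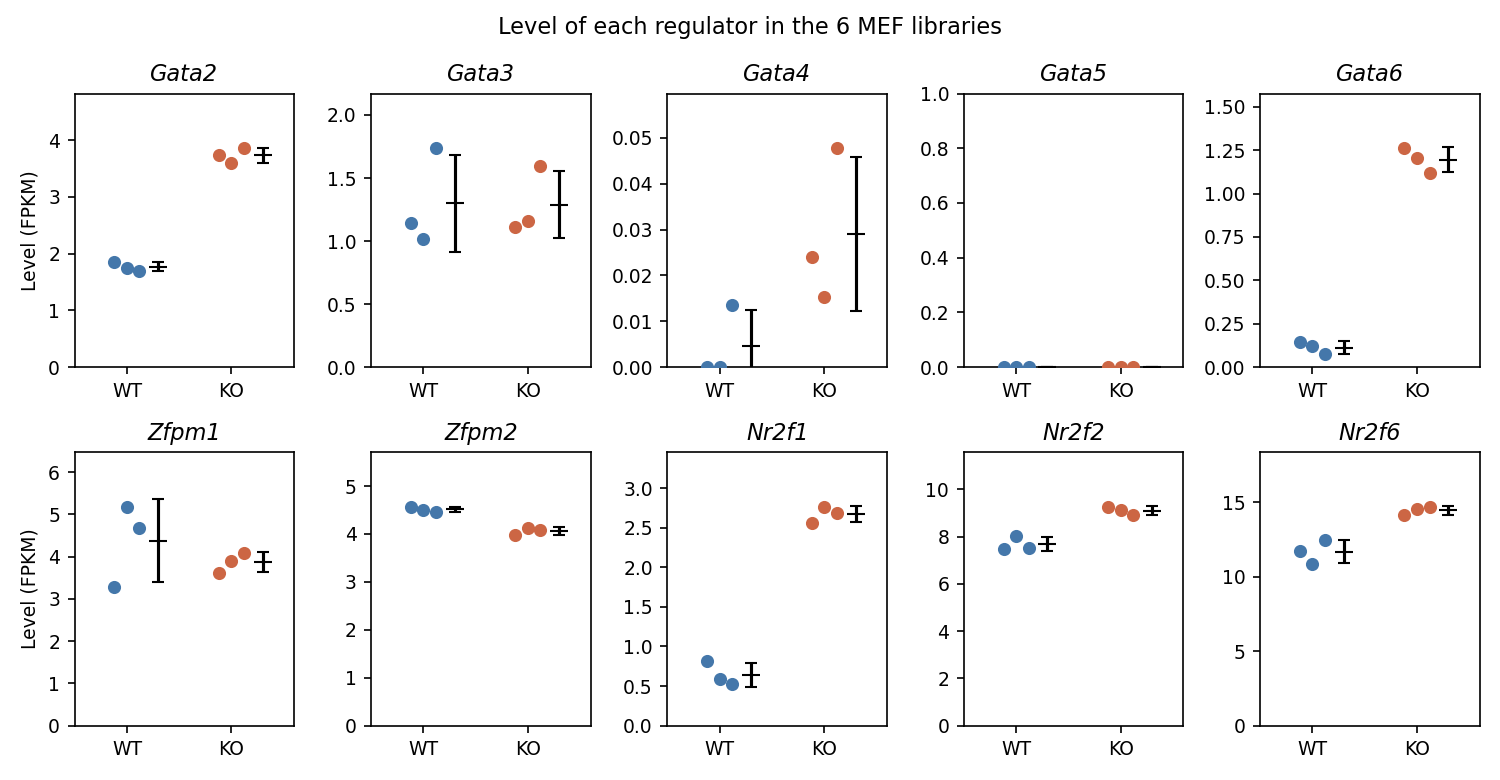
Level of each regulator in FPKM (fragments scaled by gene length and library depth), 1 panel per gene with its own vertical axis from 0, with WT libraries in blue and KO libraries in orange, and the mean ± SD of 3 libraries as a black bar. Gata2, Gata6 and Nr2f1 sat higher in all KO libraries, Gata3 and Zfpm1 overlapped between genotypes, and Gata4 and Gata5 were at or near 0.

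Gata6, a regulator of endoderm, heart and vascular smooth muscle, had the largest difference of the family. It lies at chr18:11052064-11085635 on the plus strand in the deposited coordinates (GRCm39). Its counts were 12, 11 and 9 in the WT libraries and 175, 131 and 117 in KO. Its level was 0.144, 0.120 and 0.0735 FPKM in the WT libraries and 1.26, 1.21 and 1.12 FPKM in the KO libraries. Every KO library lay far above every WT library, and WT was close to the lower end of what these libraries can measure. The WT mean of 0.736 ± 0.233 CPM and the KO mean of 7.81 ± 0.480 CPM (SD, n = 3) gave a log2 fold change of 3.45 with an SE of 0.26 and a 95% interval from 2.93 to 3.97, a 10.9-fold difference. With so few WT counts, the value moved between 3.18 without WT3 and 3.65 without WT1.

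Gata2, a regulator of blood progenitors and of several mesenchymal and neural lineages, was the GATA factor with the highest mean FPKM in both genotypes, although Gata3 was above it in WT3. It lies at chr6:88170873-88184014 on the plus strand. Its level was 1.86, 1.75 and 1.70 FPKM in WT and 3.74, 3.60 and 3.86 FPKM in KO. The libraries of a genotype lay close together and the genotypes did not overlap. The log2 fold change was 1.08 with an SE of 0.13, a 2.11-fold difference, and leaving out any 1 library gave values from 1.05 to 1.11. Gata2 was just inside the fold threshold of the call, its 95% interval ran from 0.83 to 1.33, and it was not called when the test was made against a 2-fold change.

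Gata3, a regulator of T cells, kidney and the sympathetic nervous system, overlapped between genotypes. Its level was 1.14, 1.02 and 1.74 FPKM in WT and 1.11, 1.16 and 1.59 FPKM in KO. WT3 was the highest of the WT libraries and KO3 the highest of the KO libraries. The log2 fold change was -0.04 with an SE of 0.19 and a 95% interval from -0.43 to 0.34, and it was 0.25 without WT3 and -0.21 without KO3.

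Gata4 and Gata5, which act with Gata6 in heart and endoderm, were not detectable above the floor of 3 counts per library that was applied here. Gata4 had 0, 0 and 1 counts in WT and 2, 1 and 3 counts in KO. Gata5 had 0 counts in all 6 libraries, which allows up to 0.236 CPM in the shallowest library, WT1, and up to 0.143 CPM in the deepest, KO1, for counting error only. No fold change was given for either gene.

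The GATA factors as a family summed to 3.19 ± 0.318 FPKM in WT and 6.24 ± 0.333 FPKM in KO (SD, n = 3), 1.96 times as much. Gata2 held 56.0% ± 6.71 of this sum in WT and 59.8% ± 1.36 in KO. The share of Gata6 was 4.59%, 4.16% and 2.08% in WT and 20.6%, 20.2% and 16.9% in KO. That of Gata3 was 40.3% ± 7.79 in WT and 20.5% ± 3.16 in KO, while the Gata3 level itself overlapped between genotypes. By mean FPKM the order was Gata2, Gata3, Gata6, Gata4 and Gata5 in both genotypes. In KO1 and KO2, however, the FPKM of Gata6 was above that of Gata3, so the place of Gata3 in KO rests on KO3. The FPKM values of Gata2 and Gata3 overlapped between their libraries in WT and not in KO, while those of Gata3 and Gata6 were separate in WT, 11.5-fold apart, and overlapped in KO.

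**Figure D2:**
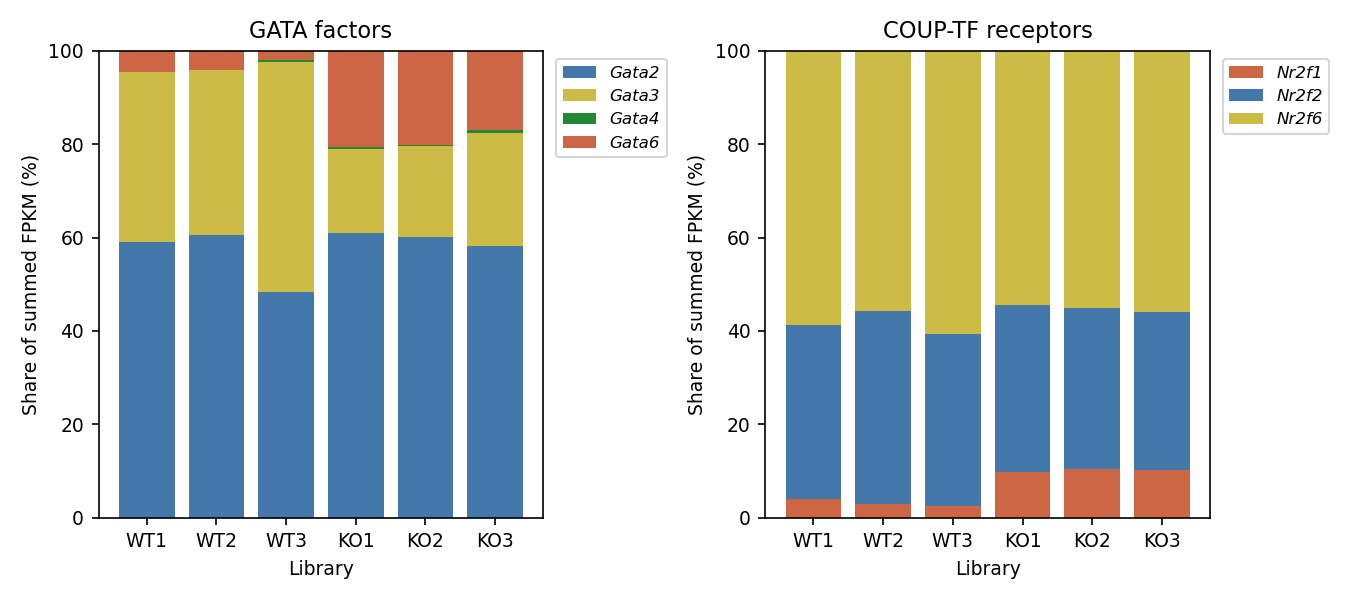
Share of each gene in the summed FPKM of its family, in percent, for each of the 6 libraries, with GATA factors on the left and COUP-TF receptors on the right. Gata6 took 2.08% to 4.59% of the GATA sum in WT and 16.9% to 20.6% in KO, and Nr2f1 took 2.59% to 4.06% of the COUP-TF sum in WT and 9.86% to 10.4% in KO. Gata5 was at 0 and is not drawn.

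Of the FOG cofactors, neither was called. Zfpm1 (FOG1), known as the partner of GATA1 in blood, was at 3.29, 5.18 and 4.67 FPKM in WT and at 3.62, 3.90 and 4.08 FPKM in KO. WT1 held the lowest value of all 6 libraries and the other WT libraries the highest, so the genotypes overlapped only through WT1. The log2 fold change was -0.19 with an SE of 0.12, and it was -0.35 without WT1. Zfpm2 (FOG2), the partner of GATA4 in heart and gonad, was at 4.57, 4.51 and 4.47 FPKM in WT and at 3.98, 4.12 and 4.09 FPKM in KO. All KO libraries were below all WT libraries, with a small log2 fold change of -0.15 and an SE of 0.09. The values of the cofactors overlapped each other in both genotypes, and their sum was 8.90 ± 0.941 FPKM in WT and 7.93 ± 0.298 FPKM in KO. The FOG sum was thus above the GATA sum in both genotypes, by mean level per length.

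Nr2f1 (COUP-TFI), a regulator of cortical patterning and neural crest derivatives, had the largest difference of the COUP-TFs. It lies at chr13:78337092-78347876 on the minus strand. Its counts were 53, 42 and 51 in WT and 278, 235 and 220 in KO. Its level was 0.815, 0.587 and 0.532 FPKM in the WT libraries and 2.56, 2.77 and 2.68 FPKM in the KO libraries. The KO libraries lay within a narrow range far above the WT libraries, of which WT1 was the highest. The log2 fold change was 2.07 with an SE of 0.17 and a 95% interval from 1.74 to 2.40, a 4.20-fold difference, with 1.94 without WT3 and 2.26 without WT1.

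Nr2f2 (COUP-TFII), a regulator of mesenchyme, veins and lymphatic vessels, was at 7.48, 8.03 and 7.53 FPKM in WT and at 9.26, 9.14 and 8.89 FPKM in KO. It did not overlap between genotypes, with a log2 fold change of 0.25 and an SE of 0.08, a 1.19-fold difference. Nr2f6 (EAR2), a more distant member known as a repressor of cytokine genes in T cells, was at 11.8, 10.9 and 12.4 FPKM in WT and at 14.1, 14.6 and 14.7 FPKM in KO. Its genotypes did not overlap either, with a log2 fold change of 0.31 and an SE of 0.09. Both differences were well under the 2-fold limit of the call.

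The COUP-TFs summed to 20.0 ± 0.508 FPKM in WT and 26.2 ± 0.269 FPKM in KO (SD, n = 3), 1.31 times as much. The order of levels was Nr2f6, Nr2f2 and Nr2f1 in both genotypes with no overlap between neighbours. Nr2f2 was 11.9-fold above Nr2f1 in WT and 3.41-fold above it in KO. The share of Nr2f1 in the sum was 3.22% ± 0.758 in WT and 10.2% ± 0.289 in KO, so the larger receptors still held most of the COUP-TF RNA. Nr2f2 and Nr2f6 were thus the abundant receptors in MEFs of both genotypes, and Nr2f1 was the one with the large difference.

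**Figure D3:**
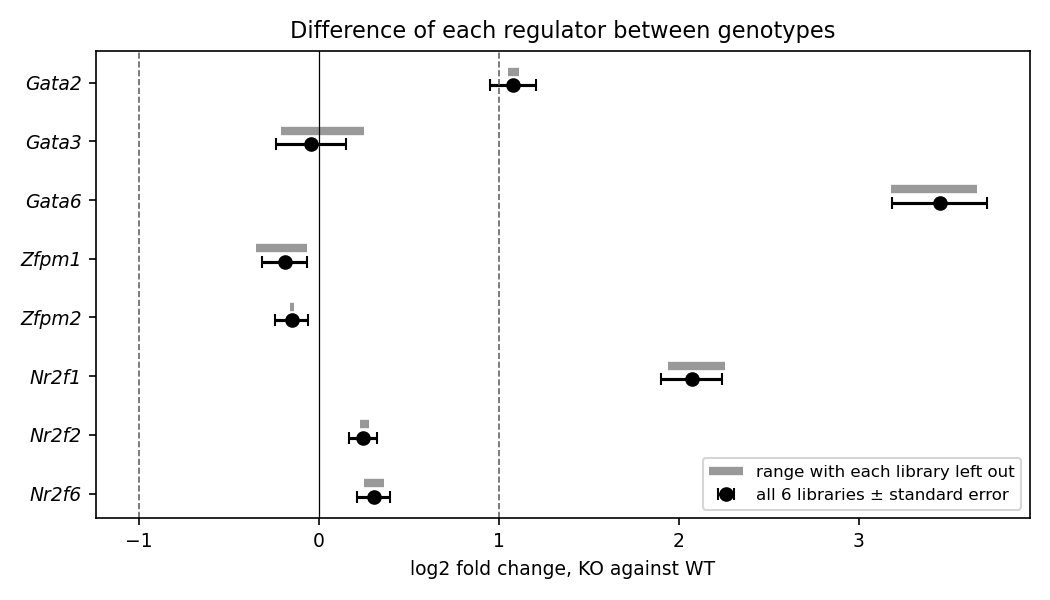
Log2 fold change of KO against WT for the 8 regulators with counts in every library, as a point with its standard error, and as a grey bar the range of the 6 fits that leave out 1 library each. The dashed lines mark a 2-fold difference. Gata6 (3.45), Nr2f1 (2.07) and Gata2 (1.08) lay beyond the line, and the other 5 lay between -0.19 and 0.31.

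Loci that overlap these genes were examined because a kit that does not mark strand leaves reads of overlapping genes inseparable. The study's methods name the NEBNext Ultra RNA kit, which was taken here as not marking strand. The strand setting of the counting was not given in the sources used here. There were 11 such loci over 7 of the regulators, and 5 of them had 3 or fewer counts in every library. Only A830082K12Rik, a long noncoding RNA at chr13:78346136-78427510 on the plus strand, was called. It overlaps the start of Nr2f1 by 1741 bases on the opposite strand. Its counts were 9, 16 and 7 in WT and 60, 60 and 61 in KO, with no overlap between genotypes. The log2 fold change was 2.24 with an SE of 0.33 (edgeR adjusted p = 1.46e-09), near that of Nr2f1. Their annotated transcripts share 105 bases on opposite strands, in the Nr2f1 coding sequence from base 350 to base 454 after the start codon. How reads over those bases were assigned was not given in the sources used here. The changes of Nr2f1 and A830082K12Rik are therefore not shown to be independent.

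**Figure D4:**
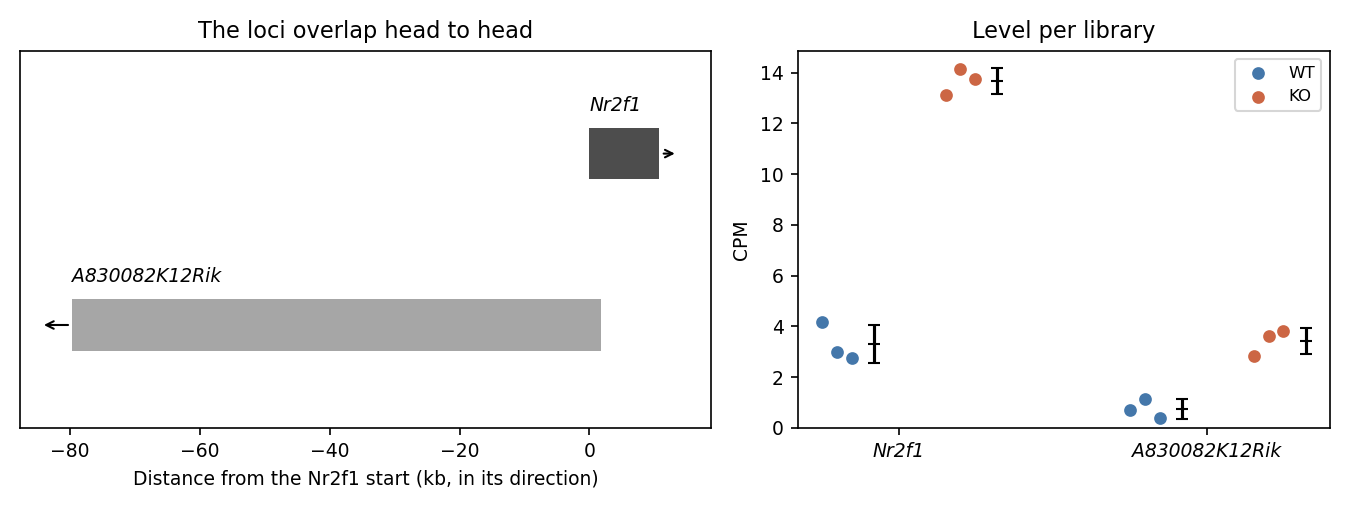
Left, Nr2f1 and A830082K12Rik by distance from the Nr2f1 start in kilobases, with arrows in the direction of transcription. Right, CPM of both genes in WT (blue) and KO (orange) libraries with the mean ± SD of 3 libraries. Both genes sat higher in all KO libraries than in any WT library.

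At the other regulators the overlapping loci had few counts or no call. Gata6os, antisense to Gata6, had 0 counts in each WT library and 1, 3 and 3 counts in KO, at or under the floor. B130024G19Rik, antisense to Nr2f2, had a log2 fold change of 0.49 (SE 0.30, edgeR adjusted p = 0.396), and Ocel1, which overlaps Nr2f6 on the other strand, had one of 0.10 (SE 0.12, edgeR adjusted p = 0.684). Another 28 loci lay within 50 kb of a regulator without overlap, and 0 of them were called by edgeR.

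The genes that work with these regulators were examined in 8 lists of 111 genes, of which 100 were tested and 11 had 0 counts in every library. In all, 4 were called higher in KO and 1 lower, beside 1.75% and 0.665% of all genes tested. With adjusted p alone, without the fold limit, 23 of the 100 tested passed, and 9.0% of all genes tested did.

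**Figure D5:**
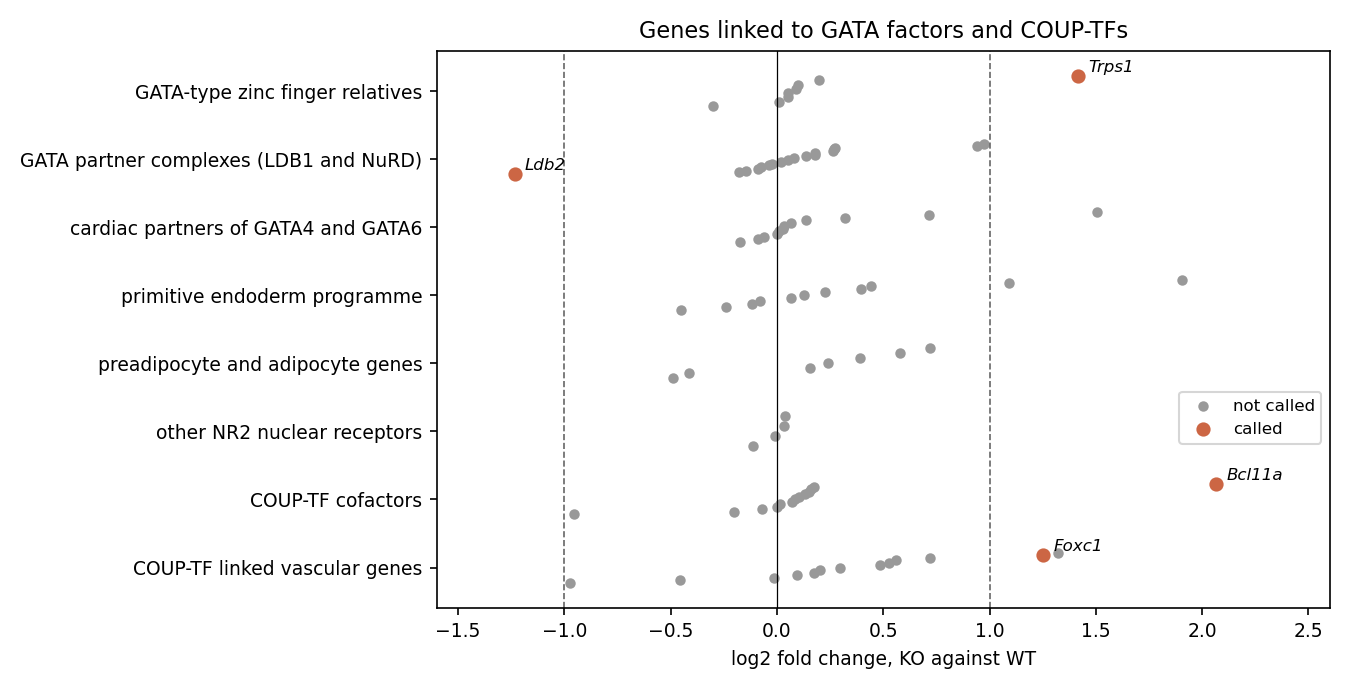
Log2 fold change of KO against WT for each gene above the floor in both genotypes, by list, with called genes in orange and other genes in grey. The dashed lines mark a 2-fold difference. Most genes lay near 0, and the called ones were Trps1, Bcl11a and Foxc1 above and Ldb2 below. Tbx20, which was called with WT at the floor, is not drawn.

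Among GATA-type zinc finger relatives, 1 of 9 tested was called. Trps1, a repressor with a GATA-type zinc finger that acts in bone and hair development, was at 14.3, 21.0 and 22.4 CPM in WT and at 54.5, 51.9 and 49.3 CPM in KO. It rose by a log2 fold change of 1.42 (SE 0.10, edgeR adjusted p = 4.2e-46), with WT1 the lowest library, and by 1.25 without WT1. The relatives with the highest mean FPKM, by which the abundant genes of every list were chosen, were the NuRD subunits Mta1 and Mta2, and they had log2 fold changes of 0.10 and 0.05. Gata1, the partner of Zfpm1 in red blood cells, had 0 counts in all libraries. The median log2 fold change of the genes above the floor in both genotypes was 0.07 in this list, beside 0.01 over all genes tested.

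Among partners in the LDB1 and NuRD complexes, 1 of 20 tested was called. Ldb2, a LIM-domain-binding adaptor related to Ldb1, was at 8.54, 7.48 and 6.44 CPM in WT and at 3.12, 3.31 and 3.06 CPM in KO. It fell by 1.23 on the log2 scale (SE 0.20, edgeR adjusted p = 3.33e-08). The NuRD subunits Rbbp7 and Mbd3 had the highest mean FPKM and log2 fold changes of -0.02 and 0.02, and the median over genes above the floor in both genotypes was 0.06.

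Among cardiac partners of GATA4 and GATA6, 1 of 15 tested was called. Tbx20, a T-box factor of the heart, had 0, 0 and 2 counts in WT and 13, 10 and 8 counts in KO. With WT at the floor of 3 counts per library, it was at least 2.83-fold higher in KO (edgeR adjusted p = 0.00836). Its call was lost with DESeq2, with either stricter filter on low counts and without KO1. Mef2d and Srf, the most abundant of the list, had log2 fold changes of 0.03 each, and the median was 0.03. By adjusted p alone 2 of the 15 passed, 2 higher and 0 lower, Tbx20 and Nfatc1. Nfatc1, named after its values were seen, had a log2 fold change of 0.72 (SE 0.10, edgeR adjusted p = 8.77e-12), and 0.58 without WT1. Of the 17 genes of the primitive endoderm programme, in which GATA6 acts, 13 were tested and 0 were called, while Sox17, Foxa2, Hnf4a and Ttr had 0 counts. Sparc and Lamc1, its most abundant genes, had log2 fold changes of 0.13 and -0.08. The median over genes above the floor in both genotypes was 0.13, or 0.18 with 1 more gene at its bound. On adjusted p alone 3 of the 13 passed, 2 higher and 1 lower, all named after their values were seen. Col4a1 had a log2 fold change of 0.40 (SE 0.07, edgeR adjusted p = 2.84e-07). Col4a2 had one of 0.44 (SE 0.07, edgeR adjusted p = 1.82e-08), and 0.35 without WT1. Dab2 had one of -0.45 (SE 0.08, edgeR adjusted p = 1.56e-07).

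Among 12 preadipocyte and adipocyte genes, a setting in which GATA2 and GATA3 are known as repressors, 0 were called, although 4 passed the adjusted p alone, 2 in each direction. Lpl, a lipase of adipocytes, fell by 0.49 on the log2 scale (SE 0.08, edgeR adjusted p = 5.72e-08), Ebf1, an adipogenic transcription factor, fell by 0.42 (SE 0.09, edgeR adjusted p = 3.96e-05), and Cebpd, an early adipogenic factor, rose by 0.39 (SE 0.13, edgeR adjusted p = 0.0352), all 3 named after their values were seen. Dlk1, a marker of preadipocytes, had a log2 fold change of 0.24 (SE 0.07, edgeR adjusted p = 0.0174), and Cebpb, a relative of Cebpd, had one of 0.15 (SE 0.09, edgeR adjusted p = 0.392). The median of the 7 genes above the floor in both genotypes was 0.24.

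Among the other NR2 nuclear receptors, 4 of 9 were tested and 0 were called. Rxra and Rxrb, partners with which COUP-TFs can form dimers, had log2 fold changes of 0.03 and 0.04, and the median was 0.01. Among the COUP-TF cofactors, 1 of 13 was called. Bcl11a (CTIP1), a zinc finger repressor that binds COUP-TFs, had 5, 3 and 3 counts in WT and 24, 18 and 15 counts in KO, with a log2 fold change of 2.07 (SE 0.59, edgeR adjusted p = 0.0076). The call was lost without WT3 and without KO1. Its paralog Bcl11b (CTIP2), named after its values were seen, was at 60.1, 67.9 and 64.8 CPM in WT and at 31.4, 33.4 and 34.9 CPM in KO, with a log2 fold change of -0.95 (SE 0.09, edgeR adjusted p = 2.25e-25), just short of the fold limit. Tbl1x, a subunit of corepressor complexes and an abundant cofactor here, had a log2 fold change of 0.00 and was not called. The median of the cofactors was 0.09.

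Among 14 vascular genes linked to COUP-TFs, 1 was called. Foxc1, a forkhead factor of mesenchyme and vessels, was at 16.7, 18.5 and 16.5 CPM in WT and at 42.2, 41.1 and 39.8 CPM in KO. It rose by a log2 fold change of 1.25 (SE 0.10, edgeR adjusted p = 2.28e-32). With adjusted p alone 5 of the 14 passed, 3 higher and 2 lower. Efnb2, an arterial ligand of Ephb4, had a log2 fold change of 0.56 (SE 0.08, edgeR adjusted p = 1.28e-11), and Flt4, a lymphatic growth factor receptor, had one of 0.52 (SE 0.10, edgeR adjusted p = 7.7e-06). Nrp2, a coreceptor, had one of -0.45 (SE 0.07, edgeR adjusted p = 3.77e-09). These 3 were named after their values were seen. Jag1, a Notch ligand named in the same way, had a log2 fold change of -0.97 (SE 0.09, edgeR adjusted p = 1.04e-22), and it passed the fold limit without WT1 and without KO1. Ephb4, a venous receptor, and E2f1, a cell cycle factor, had log2 fold changes of 0.18 and 0.09 and were not called. Prox1, the lymphatic partner of Nr2f2, was at or under the floor in both genotypes. The median of the vascular genes above the floor was 0.30.

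Markers of tissues in which these regulators are known were given beside them, and their calls stand beside the 1.75% higher and 0.665% lower over all genes tested. Of 10 mesothelial markers, 8 were tested and Msln and Podxl were called higher, with a summed level of 7.63 to 8.70 CPM in WT and 51.5 to 57.9 CPM in KO, while Lrrn4 and Muc16 were at 0 and Upk3b, Upk1b and Gpm6a were at the floor. Most of this sum in KO was Msln, whose mean level was 2.88 CPM across WT and 44.9 CPM across KO. Podxl was called in 3 of the 6 fits that leave out 1 library, not without WT3, KO1 or KO3. Of 10 gut and endoderm epithelial markers, 6 were tested and Krt8 and Krt18 were called higher, with a summed level of 0.713 to 1.18 CPM in WT and 5.53 to 6.81 CPM in KO. The defining endoderm factors Cdx2, Foxa2, Sox17 and Hnf4a were at 0 in all libraries. Of 9 cardiomyocyte markers, 8 were tested and Tnnt2 was called lower, with a summed level of 8.15 to 9.23 CPM in WT and 2.95 to 4.01 CPM in KO, and Myh6 was at 0.

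Of 8 sympathetic neuron markers, 7 were tested and Stmn2 was called higher, with a summed level of 31.7 to 36.1 CPM in WT and 110 to 114 CPM in KO, while Th was at 0 and Phox2a and Dbh were at the floor. Of 8 endothelial markers, 6 were tested and Erg was called higher, with a summed level of 1.72 to 4.70 CPM in WT and 3.87 to 5.71 CPM in KO. Erg was called in 2 of the 6 fits that leave out 1 library, those without WT3 and without KO1. Of 9 blood markers, 3 were tested, and 6 including Gata1 were at 0, with a summed level of 46.0 to 57.9 CPM in WT and 58.4 to 60.3 CPM in KO. Of 9 gonadal somatic and 8 nephric or urothelial markers, 7 and 4 were tested and 0 were called, with summed levels of 74.1 to 82.6 and 4.06 to 4.70 CPM in WT and of 59.8 to 64.3 and 5.65 to 8.59 CPM in KO. Of the fibroblast markers, Thy1 was called lower, at 384 to 402 CPM in WT and 189 to 201 CPM in KO. The part of these markers in the levels of Gata6, Gata2 and Nr2f1 was not tested.

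The genes with the pattern most like that of Gata6 were found by Pearson's r of log2(CPM + 1) over the 6 libraries among 11761 protein-coding genes with a mean of at least 1 CPM. They were Eif2s3y (0.9991), a Y-linked translation factor, Smoc2 (0.9975), a matrix protein, and Rps18-ps5 (0.9975), listed as protein coding with the name of a ribosomal pseudogene. For Nr2f1 they included Shisa4 (0.9985) and Rpl26 (0.9975), a ribosomal protein. The 6 libraries form a WT and a KO cluster, so genes clearly higher in KO tend to have values near 1. Gata6 had 53 and Nr2f1 36 genes above 0.99.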

How the data were processed

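RNA-seq was available for 3 WT and 3 KO libraries of MEFs, grouped by the genotype in the labels. By the study's methods, the authors trimmed the reads, aligned them with HISAT2 (2.0.5) to an Ensembl mouse assembly and counted reads per gene with featureCounts (1.5.0-p3). The submitters' processing notes list GRCm38 and mm10. The deposited coordinates are those of GRCm39: 1546 of 52133 shared genes had the same start and end in GENCODE M21 (GRCm38), so positions of the builds were not mixed. The deposited counts were raw whole numbers per gene, and the deposited FPKM values were made by the authors from these counts and gene length.

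The counts were fitted here with edgeR 4.0.16 (TMM, factors 0.980 to 1.01, quasi-likelihood test, Benjamini-Hochberg adjustment) on the 26898 of 55565 genes that were above 0 FPKM somewhere, with DESeq2 1.42.0 and limma 3.58.1 (voom) as alternatives, in R 4.3.3 and Python 3.11.15. The prior degrees of freedom were infinite, so p-values are too small for genes that vary more than others of like level. Values after ± are SDs of 3 libraries. The floor was 3 counts per library, and depth and floors cover counting error only. An exact permutation test of 3 against 3 cannot give a two-sided p below 0.1. Simulated data with known changes were used to check the fit.

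The members and lists were chosen with earlier results of these data known. The genes named were the 10 regulators, Mcm8, the genes called in each list and up to 2 uncalled ones with the highest mean FPKM. The 3 nearest patterns of Gata6 and Nr2f1, overlapping loci, called loci within 50 kb and called markers were named as well. Genes at 0 or the floor and Prox1, Lpl, Ebf1, Cebpd, Nfatc1, Col4a1, Col4a2, Dab2, Bcl11b, Efnb2, Flt4, Nrp2 and Jag1 were added after their values were seen. Some genes that this rule names are not reported here. Alternatives covered the tool, a test against a 2-fold change, RLE scaling, filters on low counts, the replicate block, pseudocounts of 1 or 0.1, CPM in place of FPKM for shares, and each library left out in turn. Libraries of the same number were checked for shared deviations: the correlations were -0.02, -0.01 and 0.05.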

Additional observations from a re-analysis of the deposited data

How the results depend on the processing

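Gata2, Gata6 and Nr2f1 were called higher and 0 regulators lower under all alternatives to the gene-wise fit except the test against a 2-fold change, which called Gata6 and Nr2f1 only. That test called 157 genes higher and 43 lower over all genes and 1 gene of the pathway lists, Trps1, since it asks for more than the main test does. Of 128 log2 fold changes of the regulators under alternatives, 120 moved by less than the gene's edgeR standard error in the main fit. The other 8 moved more, and 0 called values changed sign. The Gata6 difference was 0.98 on the log2(FPKM + 1) scale and 2.62 on the log2(FPKM + 0.1) scale, because the pseudocount is large beside its WT level, and on the log2(FPKM + 1) scale Nr2f1 was at 1.16 and Gata2 at 0.77. The share of Gata6 in the GATA sum of KO was 23.5% with CPM in place of FPKM. With each library left out in turn, 388 to 475 genes were called higher and 157 to 196 lower, 3 regulators were called higher and 0 lower in each of the 6 fits, and 4 to 7 genes of the pathway lists were called, with 7 without WT1, Jag1 among them. The shares of the family sums ranged from 53.7% to 59.8% for Gata2, 3.12% to 4.38% for Gata6 and 2.80% to 3.54% for Nr2f1 in WT, and from 59.2% to 60.6%, 18.5% to 20.4% and 10.0% to 10.3% in KO. The replicate numbers did not pair the libraries, and the fit with the replicate number as a block called 445 genes higher and 158 lower, 3 regulators and 5 genes of the pathway lists. The limma-voom fit called 6 genes of the pathway lists, with Prox1 added. Depth limits Gata4, Gata5, Tbx20 and Bcl11a, and the WT level of Gata6.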
